A study of Mus musculus with 16 samples.

Results

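The glucuronosyltransferase (UGT) and sulfotransferase (SULT) genes were examined in mouse liver after cadmium (Cd), selenium (Se) or both. They were taken from the deposited table as the protein-coding genes whose symbols start with Ugt1a, Ugt2a, Ugt2b, Ugt3a or Sult followed by a number. The rule found 42 of the 57010 genes in the table, of which 21 are UGT genes and 21 are SULT genes. Another 6 entries with such names are pseudogenes and were left out.

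All animals were wild-type (WT) C57BL/6J mice, male by the study's methods, with 4 mice in each of 4 groups. The methods give an age of 8 to 12 weeks, and a figure legend of the study gives 8 weeks at the start of the diet. By that legend the SeMet-fed mice were older than 12 weeks when the livers were taken. The age at that time is not stated for any group. The control group (mice 27, 28, 29 and 30) received neither agent. The Cd group (mice 1, 2, 5 and 6) received CdCl2 at 1.25 mg/kg by daily intraperitoneal injection for 7 days. The Se group (mice 39, 40, 41 and 44) ate a diet with selenomethionine (SeMet) at 2 ppm for 3 months, and the Cd+Se group (mice 13, 14, 15 and 16) had the diet and, in its last 7 days, the injections. The labels do not say what the mice without CdCl2 were injected with, and whole liver RNA was sequenced, so a change in the number of cells and a change in RNA per cell cannot be told apart.

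UGT enzymes join glucuronic acid, taken from UDP-glucuronic acid, to bilirubin, steroids, bile acids and drugs, which makes them soluble enough to leave in bile or urine. SULT enzymes do the same with a sulfate group from the donor PAPS. Hepatocytes are the main site of both reactions, and the genes are known targets of hepatocyte transcription factors and of nuclear receptors that sense bile acids, fatty acids and drugs. The UGT1A enzymes are made from a single locus in which each member has its own first exon and all share the remaining exons. The UGT2 genes are separate neighbours that arose by duplication.

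The positions were read from the GENCODE M21 annotation of GRCm38. The 9 Ugt1a genes lie at chr1:88055388-88220002. A cluster of 13 genes lies at chr5:86889767-87591594 and holds Ugt2b34, Ugt2b1, Ugt2b35, Ugt2b36, Ugt2b5, Ugt2b37, Ugt2a3, Ugt2b38, Ugt2a1, Ugt2a2, Sult1b1, Sult1d1 and Sult1e1 in this order. Sult5a1 lies at chr8:123140192-123158315, and the Ugt3a genes are on chromosome 15.

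Promoter sequence is given for a pair of genes to show how alike some of these genes are. Ugt2b38 and Ugt2b5 are shown because their coding sequences were the most alike in the chromosome 5 cluster while only Ugt2b38 passed the test after Cd. Each sequence is the 150 bases before the RefSeq start (GRCm38.p6), 5′ to 3′ on the gene's strand. They are chr5:87424204-87424353 (minus strand) for Ugt2b38 and chr5:87140341-87140490 (minus strand) for Ugt2b5. Capitals mark the longest run that Ugt2b38 and Ugt2b5 share.
Ugt2b38: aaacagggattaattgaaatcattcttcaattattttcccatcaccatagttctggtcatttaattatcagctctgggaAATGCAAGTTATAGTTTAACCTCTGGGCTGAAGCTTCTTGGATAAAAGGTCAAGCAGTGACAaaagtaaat
Ugt2b5: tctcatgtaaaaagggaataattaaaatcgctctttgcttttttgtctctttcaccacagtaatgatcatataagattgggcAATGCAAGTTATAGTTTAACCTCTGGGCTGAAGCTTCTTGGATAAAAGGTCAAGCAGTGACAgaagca

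Ugt2b38 and Ugt2b5 shared a run of 62 bases without a mismatch, which starts 71 bases before the start of Ugt2b38 and 68 bases before that of Ugt2b5. Their coding sequences, both of 1590 bases, were 97.0% identical. Searched on both strands over the 250 bases before the start, the nuclear receptor motif AGGTCA was present in 9 of the 21 genes with a RefSeq promoter among those tested below, and in 14% of all 32851 promoters. It lies inside the shared run of Ugt2b38 and Ugt2b5, so these matches are copies of 1 duplicated sequence and are not independent. Their cluster neighbours Ugt2b35, Ugt2b36 and Ugt2b37 also matched, and these matches may not be independent either. Of the 4 genes with a promoter that were lower in Cd below, 1 had AGGTCA. The TATA motif TATAAA was present in 2 of the 21 (12.4% of all promoters), the AHR core GCGTG in 3 (28.2%), the STAT core TTCNNNGAA in 1 (7.02%) and the antioxidant response core TGACNNNGC in 0 (10.2%). For each motif a gene was counted if any of its promoters matched, whereas the share is over single promoters, so these are not strictly alike. A match is a description of the letters only.

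The data were the TPM values (levels corrected for gene length and set to an equal total per library) that the authors deposited for 16 liver libraries. TPM keep no depth, so the depth of each library is unknown. Differences were tested with limma on log2(TPM + 1) over the 11766 genes whose 16 libraries averaged 1 TPM or more, with p-values adjusted by the Benjamini-Hochberg method, and fold changes below are on that scale. The scale understates the changes of genes near 1 TPM. The metallothionein genes Mt1 and Mt2, which Cd induces, were higher in Cd than in control by 5.30 and 5.88 on the log2 scale (limma adjusted p = 1.9e-05 and 5.7e-05), in the direction of the labels. The libraries differed in their overall level. The median log2(TPM + 1) of the tested genes was 2.68 in Cd mouse 5 and 2.90 in Cd mouse 6, against 3.06 to 3.36 in the other 14 libraries. Among all tested genes the median difference between Cd and control was accordingly -0.17, which became 0.05 after each library was centred on its median and -0.01 after quantile normalization. Of all tested genes, 685 were higher and 2934 lower in Cd, against 2260 and 1804 after centring and 1710 and 2276 after quantile normalization. Calls of UGT and SULT genes are therefore given under these scalings where they changed. The plot of the scalings shows the difference between Cd and control of each of them that was tested.

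Of the 42 genes, 24 averaged 1 TPM or more and were tested. These were 7 of 9 Ugt1a genes, 8 of 10 Ugt2 genes, both Ugt3a genes and 7 of 21 Sult genes. A further 9 were listed at 0 TPM in every library, namely Sult1c1, Sult2a3, Sult2a4, Sult2a5, Sult2a6, Sult3a1, Sult3a2, Ugt2a1 and Ugt2a2. The other 9 were above 0 in some library but under the filter. The highest of these was Ugt1a2, with a group mean of at most 0.93 TPM, and the highest single library of Sult1e1, the oestrogen sulfotransferase, was 0.61 TPM. Sult2a1, Sult2a2, Sult2b1, Sult4a1, Sult6b1 and Sult6b2 had highest libraries of 0.15, 0.35, 0.40, 0.23, 0.09 and 0.04 TPM, and Ugt1a8 was at 1.08 TPM in Cd mouse 2 and at most 0.10 TPM elsewhere. Sult2a1 and Sult3a1 are known for higher levels in female than in male mouse liver, and all mice here were male. No gene under the filter reached a group mean of 1 TPM.

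Ugt2b5 had the highest mean, 829.97 TPM over the 16 livers, followed by Ugt2b36 (629.7 TPM), the bile acid sulfotransferase Sult2a8 (508.8 TPM), the bilirubin glucuronosyltransferase Ugt1a1 (263 TPM), the phenol sulfotransferase Sult1a1 (245 TPM) and Ugt2b34 (232 TPM). Means between 100 and 190 TPM were measured for Ugt2b1, Ugt3a2, Ugt2a3, Sult1d1, Ugt1a6a, Ugt2b38 and Ugt1a6b. Ugt2b35, Ugt1a5, Ugt3a1, Ugt1a9 and Sult1b1 lay between 12.6 and 96.8 TPM. Sult1c2, Ugt1a7c, Sult2a7, Ugt1a10, Sult5a1 and Ugt2b37 were lowest, with means of 1.05 to 3.79 TPM.

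**Figure D1:**
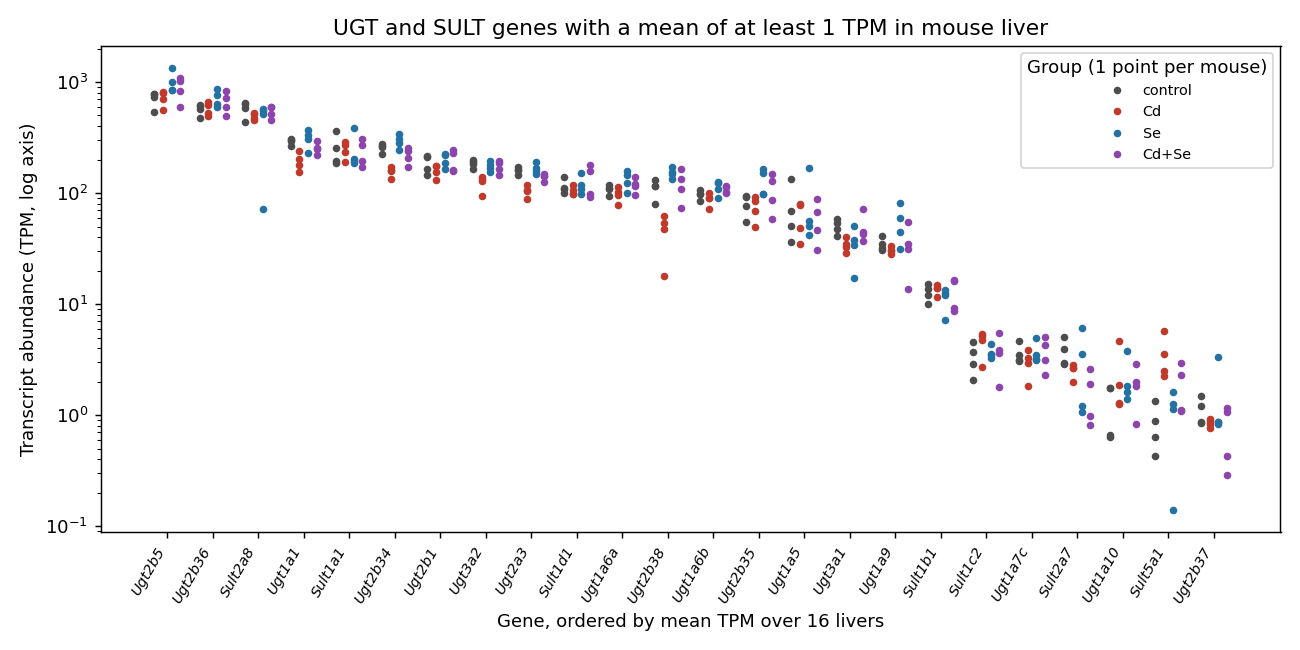
TPM (log axis) of the 24 tested UGT and SULT genes in each of 16 livers, with genes ordered by their mean and 1 point per mouse coloured by group. The red Cd points lie under the other colours for Ugt2b38, Ugt2b34, Ugt2a3 and Ugt3a2, and Sult2a8 in Se mouse 40 (72.4 TPM) lies far below its group.

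Summed over all UGT genes, the level was 2917 ± 257 TPM (SD, n = 4 mice) in control, 2470 ± 359 in Cd, 3564 ± 566 in Se and 3128 ± 560 in Cd+Se livers. The ranges of control (2546 to 3134 TPM) and Cd (1979 to 2797 TPM) overlapped. Summed SULT levels were 961 ± 13.8 TPM in control, 871 ± 71.2 in Cd, 812 ± 122 in Se and 928 ± 169 in Cd+Se livers. Ugt2b5 and Ugt2b36 alone made up 24.1% and 19.5% of the UGT sum in control livers and 29.1% and 23.4% in Cd livers. Ugt2b38 made up 3.76% in control and 1.78% in Cd livers. These sums were not tested.

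The first comparison asked what Cd alone did to liver. In the Cd mice 5 UGT genes were lower than in control, Ugt2b38, Ugt2b34, Ugt2a3, Ugt1a1 and Ugt3a2, and 1 SULT gene, Sult5a1, was higher (limma adjusted p under 0.05). The largest change was in Ugt2b38, whose mean fell from 111 to 45.3 TPM. The 2 UGT genes of highest level, Ugt2b5 and Ugt2b36, did not pass the test, nor did Sult2a8 or Sult1a1. The 6 genes are 25% of the 24 tested, whereas 30.8% of all tested genes passed in this comparison, 24.9% lower and 5.82% higher in Cd. The share is thus no higher than in the whole table. All 6 also passed after quantile normalization, where 19.3% of all genes were lower in Cd, and after median centring, where 15.3% were.

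Ugt2b38 is a UGT2B enzyme of the chromosome 5 cluster, known for its male-biased expression in mouse liver. It measured 79.4, 130, 116 and 117 TPM in control mice 27, 28, 29 and 30, against 54.0, 47.5, 18.0 and 61.9 TPM in Cd mice 1, 2, 5 and 6. Every Cd mouse was below every control mouse, and Cd mouse 5 was the lowest. The log2 fold change was -1.38 ± 0.31 (SE, limma adjusted p = 0.00418), and -0.99 without Cd mouse 5 (adjusted p = 0.00724).

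Ugt2b34 is the first gene of the same cluster. Its levels were 225, 266, 277 and 262 TPM in control and 171, 161, 133 and 159 TPM in Cd mice, so the groups did not overlap. The log2 fold change was -0.72 ± 0.14 (limma adjusted p = 0.00153).

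Ugt2a3, a UGT2A enzyme expressed in liver and intestine, had the smallest adjusted p of the family. It measured 163, 172, 147 and 161 TPM in control and 118, 106, 87.7 and 104 TPM in Cd mice. All Cd mice were below the lowest control, and the spread within both groups was small. The log2 fold change was -0.63 ± 0.11 (limma adjusted p = 0.000883).

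Ugt1a1 is the enzyme that conjugates bilirubin, and its loss causes the jaundice of Crigler-Najjar syndrome. It measured 294, 310, 303 and 267 TPM in control and 239, 203, 154 and 181 TPM in Cd mice, again without overlap. The log2 fold change was -0.61 ± 0.15 (limma adjusted p = 0.00807). The other 6 tested Ugt1a genes did not pass the test. Ugt1a6a, an enzyme for planar phenols, was at 108 ± 9.58 TPM in control and 97.0 ± 14.9 in Cd livers, and Ugt1a6b at 96.6 ± 8.39 and 88.0 ± 12.1 TPM. Ugt1a9 was at 34.6 ± 4.52 and 30.8 ± 2.10 TPM, Ugt1a5 at 72.9 ± 43.4 and 60.3 ± 22.5, Ugt1a7c at 3.60 ± 0.76 and 2.96 ± 0.84, and Ugt1a10 at 1.21 ± 0.64 and 2.26 ± 1.61 TPM. Between 50.4% and 70.9% of the 100-base stretches of each tested Ugt1a gene's transcripts also occur in another gene, because of the shared exons, so how reads were split among them is uncertain.

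Ugt3a2 belongs to the UGT3A branch, whose enzymes are known to use sugars other than glucuronic acid. It measured 164, 190, 197 and 185 TPM in control and 140, 128, 93.5 and 133 TPM in Cd mice. The groups did not overlap, and the log2 fold change was -0.58 ± 0.13 (limma adjusted p = 0.00462). Its neighbour Ugt3a1, whose coding sequence was 93.2% identical, measured 40.8, 58.3, 47.8 and 53.6 TPM in control and 34.7, 32.8, 29.1 and 40.2 TPM in Cd mice. These values did not overlap either, but the test was not passed (log2 fold change -0.54 ± 0.25, limma adjusted p = 0.121). Ugt3a1 in Se mouse 40, at 17.3 TPM, was the lowest of all libraries, and without that mouse the adjusted p was 0.0392.

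Sult5a1, a sulfotransferase with no well-known substrate, was low in all groups. It measured 0.88, 0.43, 0.64 and 1.35 TPM in control and 2.48, 3.53, 5.77 and 2.23 TPM in Cd mice. The Cd values all exceeded the control values. The log2 fold change was 1.26 ± 0.29 (limma adjusted p = 0.00489), and the ratio of mean TPM was 4.25. Its transcripts shared no 100-base stretch with another gene.

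**Figure D2:**
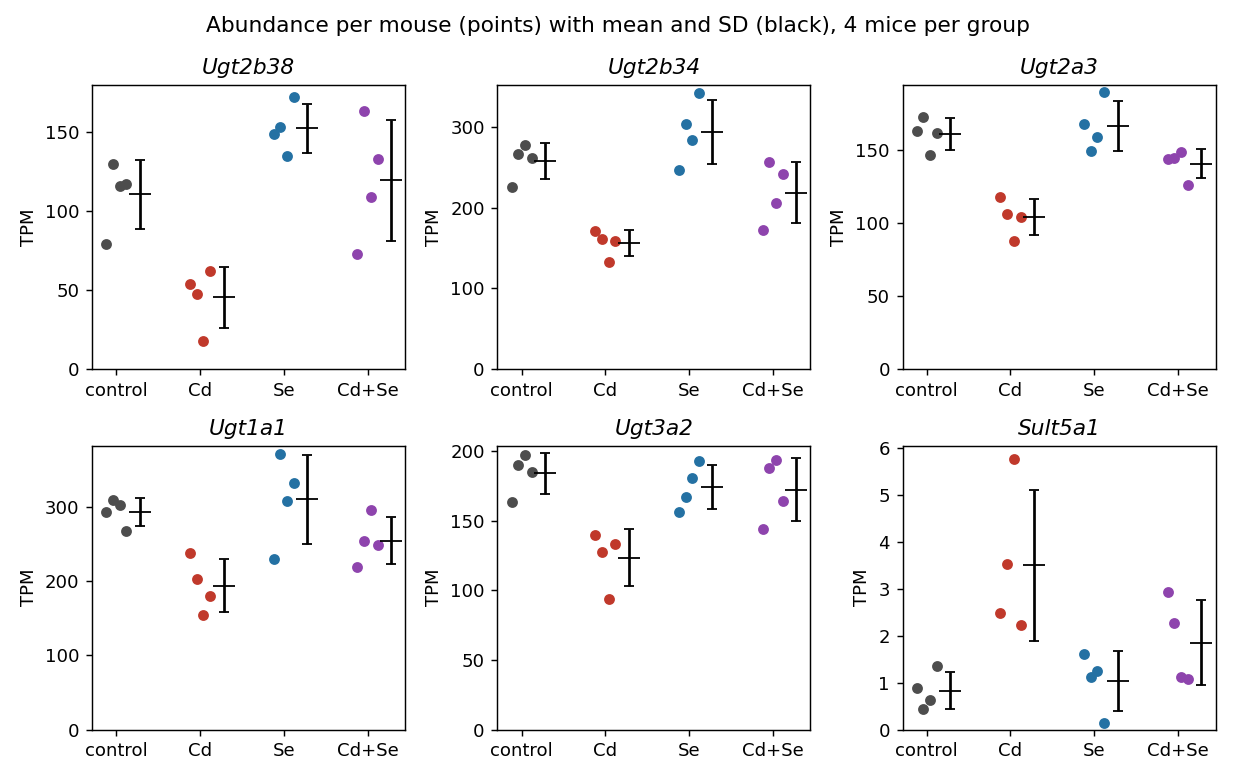
TPM per mouse (points, 4 per group) with mean and SD (black) for the 6 genes that passed the test in Cd against control, on linear axes that start at 0. For Ugt2b38, Ugt2b34, Ugt2a3, Ugt1a1 and Ugt3a2 every Cd point lies below every control point, and for Sult5a1 above.

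Among the genes that did not pass, Ugt2b5 measured 539, 774, 730 and 786 TPM in control and 815, 706, 559 and 799 TPM in Cd mice, with the groups interleaved. Its log2 fold change was 0.03 with a 95% interval of -0.40 to 0.45. Ugt2b36 measured 477, 615, 577 and 611 TPM in control and 622, 530, 491 and 663 TPM in Cd mice, a log2 fold change of 0.01 (95% interval -0.34 to 0.36). The groups again overlapped for both genes. After quantile normalization the values were -0.08 for Ugt2b5 and -0.04 for Ugt2b36. After median centring they were 0.25 and 0.23, and neither gene passed under either scaling.

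Sult2a8 measured 435, 629, 584 and 647 TPM in control and 528, 514, 457 and 471 TPM in Cd mice. Sult1a1, the phenol sulfotransferase, measured 364, 196, 257 and 189 TPM in control and 291, 274, 235 and 192 TPM in Cd mice. Neither passed the test, with log2 fold changes of -0.20 (95% interval -1.18 to 0.77) and 0.01 (-0.53 to 0.56). The value of Sult2a8 was 0.01 after median centring and -0.24 after quantile normalization. That of Sult1a1 was 0.23 after median centring and 0.004 after quantile normalization. The adjusted p of Sult2a8 was 0.767, and 0.235 without Se mouse 40, in which the gene was very low. Sult1d1, which sulfates catecholamine metabolites, was at 115 ± 17.1 TPM in control and 105 ± 9.92 in Cd livers, and Sult1b1, which acts on thyroid hormone, at 12.7 ± 2.21 and 13.6 ± 1.49 TPM. Sult1c2 was at 3.30 ± 1.07 and 4.50 ± 1.20 TPM, and Sult2a7 at 3.70 ± 1.01 and 2.54 ± 0.37 TPM.

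Of the other Ugt2b genes, Ugt2b1 was at 185 ± 35.0 TPM in control and 159 ± 21.4 in Cd livers, Ugt2b35 at 79.4 ± 18.2 and 73.8 ± 18.8, and Ugt2b37 at 1.11 ± 0.31 and 0.86 ± 0.07 TPM. In the chromosome 5 cluster the neighbours Ugt2a3 and Ugt2b38 passed and so did Ugt2b34, while Ugt2b1, Ugt2b35, Ugt2b36, Ugt2b5 and Ugt2b37, which lie between Ugt2b34 and Ugt2a3, did not. In all, 7 genes of the 24 were lower in Cd with no overlap (the 5 called, Ugt3a1 and Sult2a7), against 27.8% of all tested genes, and 1 was higher, against 6.44%.

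Over the 17 tested UGT genes the median log2 fold change was -0.18, with 14 below 0 as deposited and 16 after quantile normalization, but after median centring the median was 0.04 and only 7 were below 0. Over the 7 tested SULT genes the median was 0.01, with 3 below 0, and 0.23 with 1 below 0 after centring. The median over all 24 was -0.17, equal to that of all genes tested, of which 7850 of 11766 were below 0 as deposited. A direction for either family as a whole therefore depended on the scaling, whereas the 6 single calls did not. The sizes of these 6 differences did depend on it. After median centring they were -1.16 for Ugt2b38, -0.50 for Ugt2b34, -0.41 for Ugt2a3, -0.39 for Ugt1a1, -0.36 for Ugt3a2 and 1.48 for Sult5a1.

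**Figure D3:**
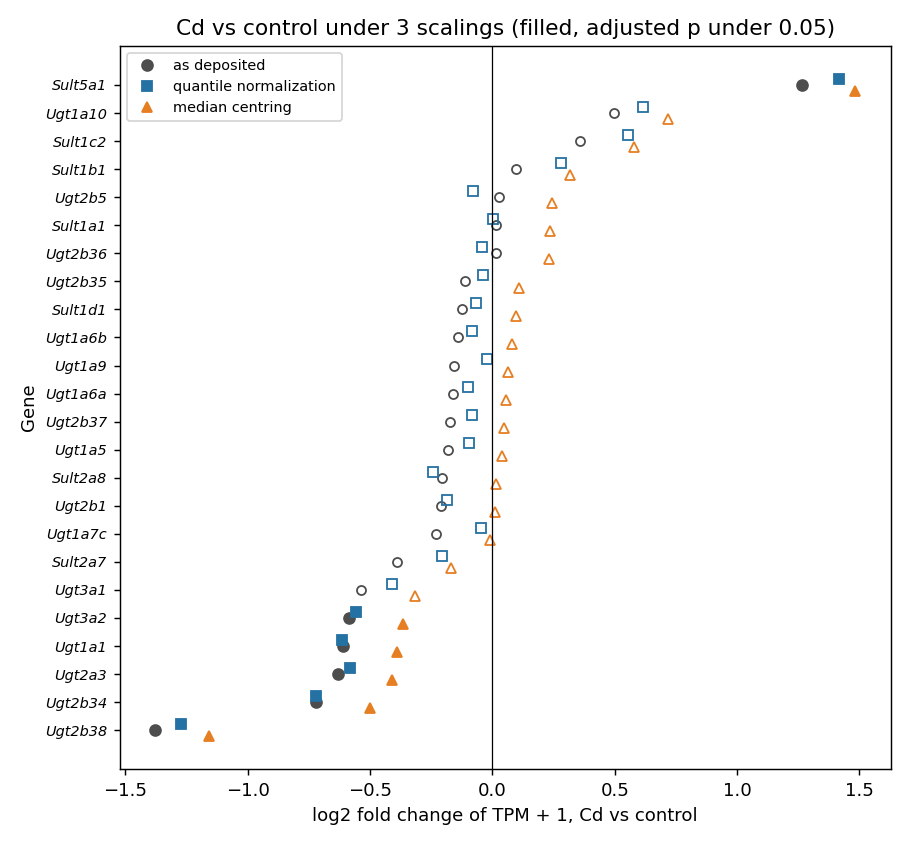
Log2 fold change of TPM + 1 in Cd against control for the 24 genes, with values as deposited (circles), after quantile normalization (squares) and after median centring (triangles), filled where the limma adjusted p is under 0.05. The same 6 genes are filled under all 3 scalings, and 9 of the 18 open genes change sign on centring.

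Ugt2b38 and Ugt2b5, the pair with a shared proximal promoter run, diverged in the Cd livers. Set against Ugt2b5 in the same library, a ratio that multiplying all values of a library by a factor does not change, Ugt2b38 amounted to 14.7%, 16.8%, 15.9% and 14.9% in control mice. It amounted to 6.63%, 6.72%, 3.22% and 7.75% in Cd mice 1, 2, 5 and 6. The Se mice had 12.9% to 17.7%, and the Cd+Se mice a mean of 13.4% and at least 12.2%. The Cd group was apart from the other 3 groups, which overlapped one another. This pair was chosen after its values were seen, and the ratio was not tested. Of the 100-base stretches, 24.2% in Ugt2b38 and 24.7% in Ugt2b5 occur in the other gene, so some reads could not be assigned to 1 of them by sequence alone.

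**Figure D4:**
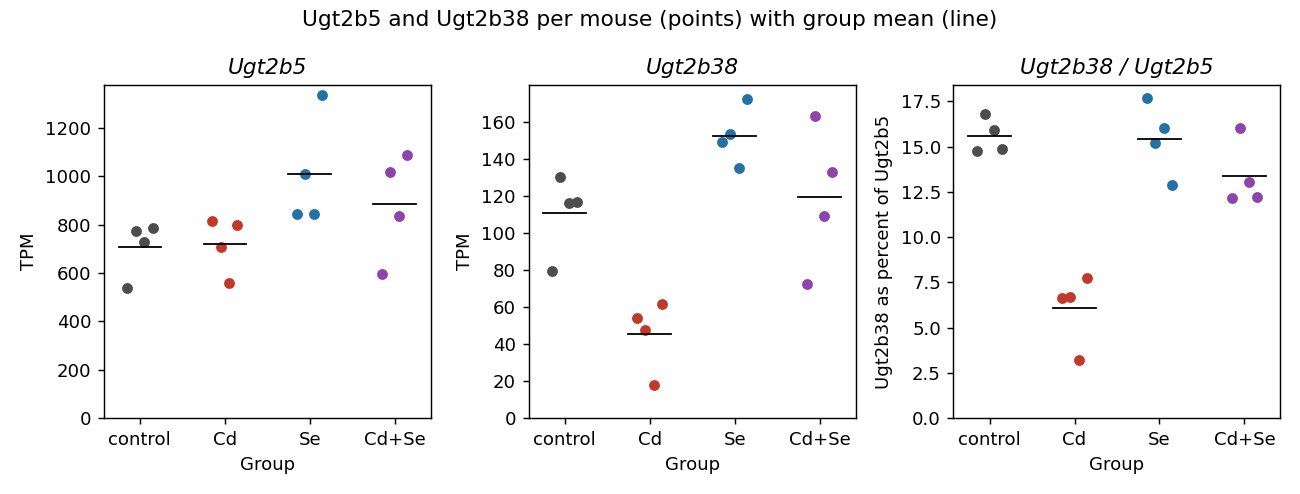
Ugt2b5 and Ugt2b38 in TPM and Ugt2b38 as a percent of Ugt2b5, per mouse (points) with the group mean (line), on linear axes that start at 0. Ugt2b5 overlaps between Cd and control, whereas the ratio is at most 7.75% in Cd mice and at least 12.2% in the other mice.

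The next comparison asked how SeMet-fed mice given Cd differed from mice given Cd alone. Ugt2b38, Ugt2a3, Ugt3a2 and Ugt2b34 were higher in Cd+Se than in Cd livers, and no UGT or SULT gene was lower (limma adjusted p under 0.05). These 4 are among the 5 UGT genes that were lower in Cd than in control, but both comparisons use the same Cd mice, so the overlap is not independent evidence. They are 16.7% of the 24 tested, against 15.9% of all genes, 13.6% of them higher in Cd+Se. After quantile normalization 6 genes passed, with Ugt1a1 and Ugt1a6b in addition, where 9.94% of all genes were higher, and after median centring 1 passed, where 7.96% were.

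Ugt2b38 measured 72.7, 163, 109 and 133 TPM in Cd+Se mice 13, 14, 15 and 16, all above the highest Cd mouse at 61.9 TPM. The log2 fold change against Cd was 1.45 ± 0.31 (limma adjusted p = 0.0102), and this was the call that held after median centring. Ugt2a3 measured 144, 144, 148 and 126 TPM, also all above the Cd mice, with a log2 fold change of 0.44 ± 0.11 (limma adjusted p = 0.0176). Without Cd mouse 5 both still passed, at 1.07 (adjusted p = 0.0184) and 0.36 (adjusted p = 0.0463).

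Ugt3a2 measured 144, 187, 194 and 164 TPM in Cd+Se mice, a log2 fold change of 0.48 ± 0.13 (limma adjusted p = 0.0255). Ugt2b34 measured 172, 256, 205 and 241 TPM, where the lowest Cd+Se mouse was just above the highest Cd mouse at 171 TPM. Its log2 fold change was 0.47 ± 0.14 (limma adjusted p = 0.0302). Without Cd mouse 5 neither passed, at adjusted p = 0.0709 for Ugt3a2 and 0.0925 for Ugt2b34.

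Ugt1a1 measured 219, 255, 296 and 249 TPM in Cd+Se mice, and the lowest of them was below the highest Cd mouse. Its log2 fold change against Cd was 0.40 ± 0.15 (limma adjusted p = 0.0857). Sult5a1 measured 2.94, 2.28, 1.12 and 1.08 TPM, which overlapped the Cd values, with a log2 fold change of -0.65 ± 0.29 (limma adjusted p = 0.133). In the other genes of high level, Ugt2b5 measured 597, 1019, 835 and 1088 TPM and Ugt2b36 498, 724, 592 and 823 TPM, neither past the test. Sult2a8 measured 594, 514, 592 and 458 TPM, and Sult1a1 308, 170, 270 and 197 TPM, also not past the test.

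In all, 4 genes were higher in Cd+Se than in Cd with no overlap, against 16.1% of all tested genes, and 0 were lower, against 3.11%. At an unadjusted p under 0.05, 7 of the 24 genes (29.2%) passed, 6 higher and Sult5a1 lower in Cd+Se, against 33.1% of all genes. Of the 17 tested UGT genes 13 had a log2 fold change above 0, with a median of 0.30, and 12 did after median centring, with a median of 0.11. Of the 7 SULT genes 2 did as deposited, with a median of -0.15. Of all 11766 tested genes 8208 were above 0 as deposited, with a median of 0.17. After median centring the median over all tested genes was -0.02.

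**Figure D5:**
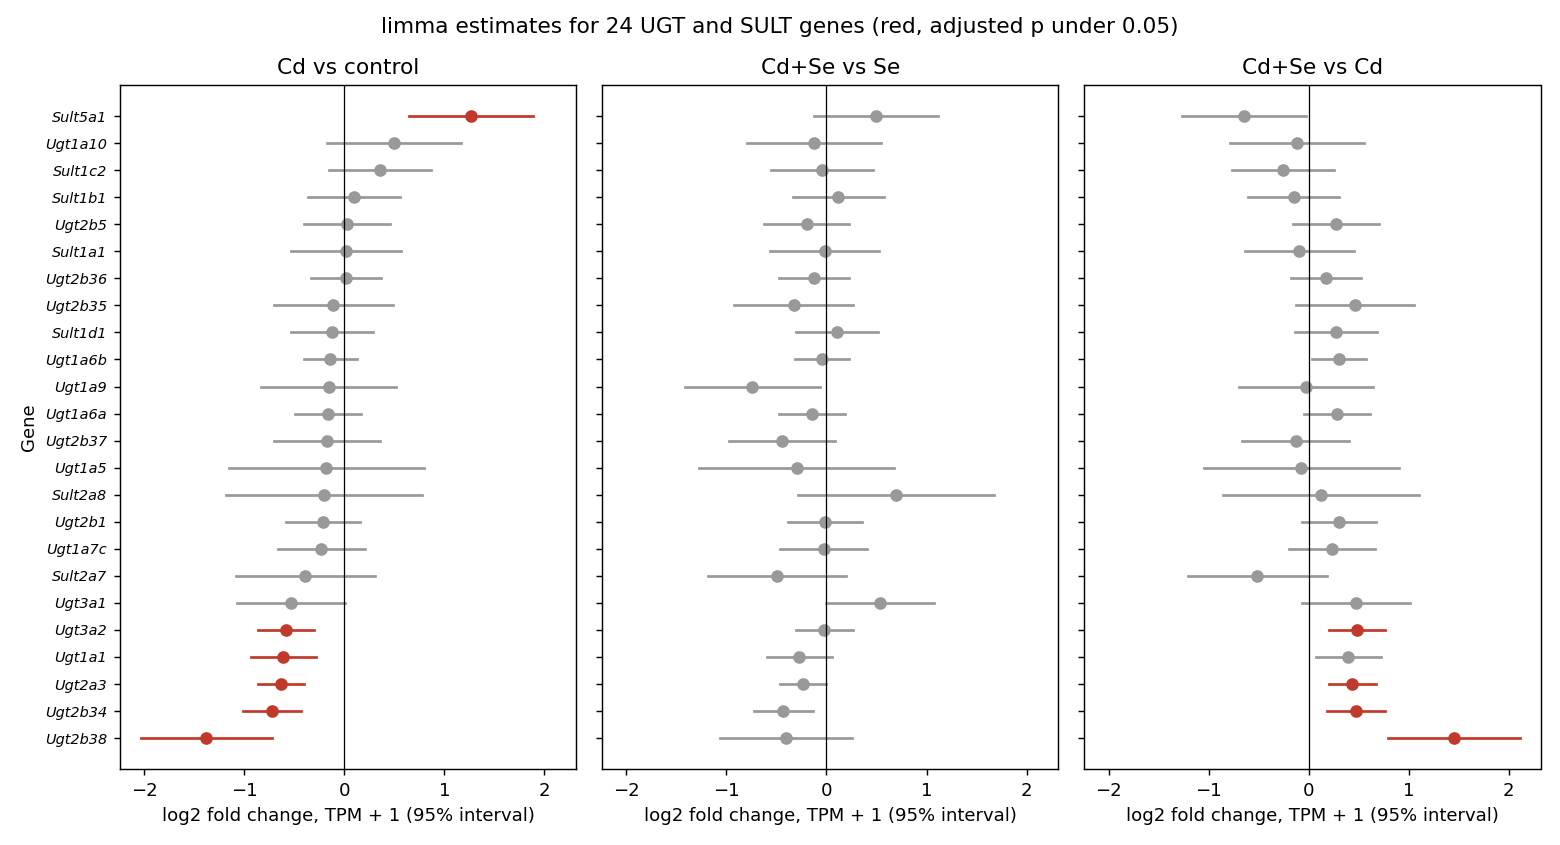
Log2 fold change of TPM + 1 with its 95% interval for the 24 genes in Cd against control, Cd+Se against Se and Cd+Se against Cd, red where the limma adjusted p is under 0.05. Red marks 6 genes in the first panel, none in the second and 4 in the third.

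The difference with Cd on the SeMet diet was read from Cd+Se against Se, which shares no mice with Cd against control. No UGT or SULT gene passed (limma), where 0.714% of all tested genes did. At an unadjusted p under 0.05, 3 of 24 passed (Ugt1a9, Ugt2a3 and Ugt2b34), against 10.9% of all genes. Ugt2b34 had a log2 fold change of -0.43 ± 0.14 (limma adjusted p = 0.214) and Ugt2a3 of -0.24 ± 0.11 (adjusted p = 0.44). Ugt2a3 was the only gene of the 24 with every Cd+Se mouse below every Se mouse, against 3.68% of all genes. The differences of Ugt2b38 (-0.40, 95% interval -1.06 to 0.25), Ugt1a1 (-0.27, -0.60 to 0.05) and Ugt3a2 (-0.02, -0.30 to 0.26) had intervals that include 0, and that of Ugt2b38 is wide enough to include a clear fall. Sult5a1 was 0.50 higher (-0.12 to 1.12).

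Whether the Cd difference itself changed with SeMet was tested as the interaction. No UGT or SULT gene passed (limma), where 1.04% of all tested genes did. At an unadjusted p under 0.05, 4 of 24 passed, Ugt3a1, Ugt3a2, Ugt2b38 and Ugt2a3, against 21.3% of all genes. The interaction was 1.07 ± 0.36 for Ugt3a1 (limma adjusted p = 0.12), 0.98 ± 0.44 for Ugt2b38 (0.214), 0.56 ± 0.19 for Ugt3a2 (0.119) and 0.39 ± 0.15 for Ugt2a3 (0.165). That a gene passed without SeMet and not with it therefore does not show that the Cd difference differed between the diets.

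The SeMet diet alone was compared with control. No UGT or SULT gene passed, and 0% of all tested genes did (limma). At an unadjusted p under 0.05, 3 of 24 passed (Ugt2b5, Ugt2b35 and Ugt3a1), against 3.86% of all genes. Ugt2b5 measured 843, 1008, 843 and 1338 TPM in Se mice 39, 40, 41 and 44, all above the highest control at 786 TPM, with a log2 fold change of 0.50 (95% interval 0.07 to 0.93, limma adjusted p = 1). Ugt2b35 was at 128 ± 34.5 TPM against 79.4 ± 18.2 in control, and Ugt2b38 at 152 ± 15.4 against 111 ± 21.8. These were the 3 genes with every Se mouse above every control, against 1.29% of all genes. Ugt2b36 measured 595, 762, 631 and 864 TPM, Ugt2b34 246, 304, 283 and 342 TPM and Ugt1a1 230, 372, 308 and 333 TPM in Se mice, all overlapping control.

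Sult5a1 was at 1.62, 1.13, 1.26 and 0.14 TPM in Se mice, Ugt2a3 at 167, 149, 159 and 189 TPM and Ugt3a2 at 156, 167, 180 and 193 TPM. None of these was apart from control. Sult2a8 measured 550, 72.4, 515 and 578 TPM and Sult1a1 197, 388, 204 and 188 TPM, and in both genes mouse 40 stood apart from the other Se mice. Without mouse 40 the log2 fold change of Sult2a8 moved from -0.78 to -0.05.

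Some of the genes varied in opposite ways within a group. Within the Cd+Se group, Sult1a1, Sult1b1 and Sult1d1 were higher in mice 13 and 15 than in mice 14 and 16, at 159 and 177 TPM against 92.8 and 99.0 TPM for Sult1d1 and 16.1 and 16.5 against 9.26 and 8.62 TPM for Sult1b1. In the same mice Ugt2b5, Ugt2b36, Ugt2b35 and Ugt2b1 were lower, at 58.9 and 86.7 TPM against 128 and 149 TPM for Ugt2b35. This split was seen after the values and has no label, and its cause was not tested. It was also seen outside these families. The sum of Mt1 and Mt2 was 11942 and 10911 TPM in mice 13 and 15, against 6685 and 6712 TPM in mice 14 and 16. Over the 24 genes the median within-group coefficient of variation ranged from 8.65% for Ugt2a3 to 52.1% for Ugt1a10, and Ugt1a5, at 51.7%, was the most variable gene above 10 TPM.

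The genes that supply the reactions were compared next, from lists written by function. Of the 3 genes for UDP-glucuronic acid supply (Ugp2, Ugdh and the transporter Slc35d1) 0 passed in Cd against control (limma). At an unadjusted p under 0.05, 1 passed, against 42.5% of all tested genes. After median centring 1 was higher, as were 2260 of all 11766 tested genes. Ugdh, which makes UDP-glucuronic acid, was at 74.6 ± 2.33 TPM in control, 120 ± 23.6 in Cd, 163 ± 78.9 in Se and 124 ± 43.5 in Cd+Se livers (Cd against control, limma adjusted p = 0.1). Its Cd values were all above the control values, as in 6.44% of all tested genes. Of the 8 genes for sulfate and PAPS, 4 were lower in Cd and none higher, beside the 24.9% of all tested genes that were lower. They were Bpnt2, a Golgi phosphatase that clears the PAP left by sulfation (log2 fold change -0.88 ± 0.17, limma adjusted p = 0.000953), Suox, which makes sulfate from sulfite (-0.65), the sulfate transporter Slc26a1 (-0.58) and Bpnt1, the cytosolic PAP phosphatase (-0.49). Papss2, the main PAPS synthase of liver, was at 59.7 ± 6.85 TPM in control and 40.9 ± 4.04 in Cd livers (limma adjusted p = 0.176). Its Cd values were all below the control values, as in 27.8% of all tested genes. After median centring 3 of the 8 were lower and 1 higher, where 15.3% of all tested genes were lower and 2260 of 11766 higher. In Cd+Se against Cd, Bpnt2 was higher by 0.73 (limma adjusted p = 0.00997) and the other 7 did not pass.

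Gusb, the lysosomal glucuronidase that removes glucuronic acid again, fell from 17.8 ± 0.71 TPM in control to 10.4 ± 1.85 in Cd livers (log2 fold change -0.73, limma adjusted p = 0.00122) and was at 15.7 ± 1.40 TPM in Cd+Se livers (0.56 against Cd, adjusted p = 0.0153). Of 4 tested export pumps for conjugates and bile acids, 0 passed in Cd against control (limma). At an unadjusted p under 0.05, 2 passed (Abcc2 and Abcb11), against 42.5% of all tested genes. Abcc2 and Abcb11 were higher, and Abcg2 lower, in every Cd mouse than in every control mouse. Of all tested genes 6.44% were higher and 27.8% lower in Cd without overlap. Abcb11, the bile salt pump, was lower in Cd+Se than in Cd (-0.65, limma adjusted p = 0.038).

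Of 10 tested receptors and partners known to act on UGT and SULT genes, 5 were lower in Cd than in control and none higher, where 24.9% of all tested genes were lower. These were Ppara, the fatty acid receptor (log2 fold change -1.15), Rxra, the shared partner of these receptors (-1.05), Nr1h4, the bile acid receptor FXR (-0.86), Arnt, the partner of AHR (-0.66), and Nr1h3, the oxysterol receptor LXRα (-0.46). Nr1i2 (PXR) and Nr1i3 (CAR), the drug sensors, did not pass, at 29.6 ± 1.76 and 27.3 ± 4.09 TPM and at 132 ± 16.9 and 122 ± 20.1 TPM. After median centring 4 were lower and 1 higher, where 15.3% of all tested genes were lower and 2260 of 11766 higher. In Cd+Se against Cd, where 13.6% of all tested genes were higher, 4 of the 10 were higher, Ppara (0.90), Rxra (0.72), Arnt (0.72) and Nr1h4 (0.63). For Rxra the interaction passed too (0.87, limma adjusted p = 0.029), in the direction of a Cd difference nearer 0 on the SeMet diet. It passed for 1.04% of all tested genes, or 122, but for 2 without control mouse 29 and 3 without Cd+Se mouse 14. The median interaction over all tested genes was 0.16 as deposited and -0.03 after median centring. Whether the call of Rxra held in these settings is not given here.

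Beside the same 24.9% of all genes, 3 of 9 hepatocyte transcription factors were lower in Cd and none higher, Hnf4a (-0.81), Foxa3 (-1.09) and Onecut1 (-2.40). Hnf4a and Foxa3 were higher in Cd+Se than in Cd (0.58 and 0.76), where 13.6% of all tested genes were. Calls of listed genes in Cd+Se against Cd, here and above, are for the values as deposited. Over all tested genes the calls in that comparison fell from 1876 to 66 with only the groups compared. Those higher in Cd+Se fell from 1600 to 937 after median centring. Whether any of these genes had a part in the UGT and SULT values was not tested.

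Markers of liver cell types were counted in Cd against control, where 24.9% of all tested genes were lower in Cd and 5.82% higher. The counts are for the values as deposited. After median centring 15.3% of all tested genes were lower. Of 5 Kupffer cell and macrophage markers 4 were lower in Cd, and their sum ranged from 99.1 to 121 TPM in control and from 35.4 to 56.8 TPM in Cd livers. Of 3 tested neutrophil markers all 3 were higher, and the sum of the 5 on the list ranged from 5.73 to 15.7 TPM in control and from 31.0 to 39.6 TPM in Cd livers, while the defining markers Ly6g and Mpo had means of 0.03 TPM. Of 5 endothelial markers 2 were lower, Stab2 (-0.62) and Kdr (-0.90), and their sum ranged from 53.3 to 64.2 TPM in control and from 33.55 to 50.4 TPM in Cd livers. Of 3 tested stellate cell markers 1 was lower (Reln, -0.93), and the sum of the 5 on the list ranged from 88.3 to 133 TPM in control and from 72.6 to 119 TPM in Cd livers. Of 6 hepatocyte markers 1 was lower (Cps1, -1.36), and their sum ranged from 54976 to 76624 TPM in control and from 35712 to 62347 TPM in Cd livers. Of 7 male-biased liver genes 0 passed in Cd against control (limma). At an unadjusted p under 0.05, 2 passed, 1 of them higher in Cd, against 42.5% of all tested genes. The part of cell composition in the UGT and SULT results was not tested.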

How the data were processed

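Poly(A) liver RNA of 16 mice was sequenced on an Illumina NovaSeq, and the authors deposited 1 table of TPM values per gene. The submitters' processing notes name fastp, HISAT2 and StringTie without versions, and the build GRCh38, although the table lists mouse Ensembl genes. How reads shared by similar genes were assigned is not given in the sources used here. Columns of other samples numbered 0.

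Values were compared as log2(TPM + 1) with limma 3.58.1 (R 4.3.3), with a mean per group over all 16 libraries, an intensity trend, and Benjamini-Hochberg adjustment over the 11766 genes that averaged 1 TPM or more. The threshold was an adjusted p of 0.05. Steps were tested on simulated data. Intervals are 95% intervals of the fit. Each sample title names a rep1 and a rep2 of the mouse, whose nature is not given in the sources used here, and the table holds 1 column per mouse.

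Every tested gene was named with its level. Values per mouse and tests were given for genes past the threshold in any of 5 contrasts and for the 6 of highest mean TPM. Genes under the filter were given by range. An exact permutation test was planned for genes under the filter with a group mean of at least 1 TPM, and none met this. The genes and lists were chosen with earlier results of these data known. Alternatives were a pseudocount of 0.1, no filter, a minimum of 5 TPM, quantile normalization, median centring, only the groups compared, no trend, protein-coding genes only, and each mouse left out. Promoters were taken from RefSeq (GRCm38.p6), which held 21 of the 24 tested genes. Transcripts were taken from GENCODE M21. Python 3.11.15 was used. A motif and a gene of the lists are not reported here.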

Additional observations from a re-analysis of the deposited data

Results flagged for a closer look

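A library was picked out where its gap to the nearest other mouse of its group, divided by the range of the group, was above the 95% critical value of Dixon's test. This was looked at in 104 sets of 4 mice (the 24 tested genes, the UGT sum and the SULT sum in 4 groups), of which chance picks about 1 in 20, or 5.2, and 5 were picked.

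Se mouse 40 accounted for 4 of them. Sult1a1 was at 388 TPM in that mouse against 188 to 204 TPM in the other 3 Se mice (0.9204). Sult2a8 was at 72.4 TPM against 515 to 578 TPM (0.8757), and with it the SULT sum was at 630 TPM against 863 to 889 TPM (0.9007). Ugt1a5 was at 169 TPM against 41.5 to 56.1 TPM (0.8857). Control mouse 27 also had the highest Sult1a1 and Ugt1a5 and the lowest Sult2a8 of its group, at 364, 135 and 435 TPM. The last was Ugt2b37, at 3.36 TPM in Se mouse 39 against 0.83 to 0.87 TPM in the other Se mice (0.9842). This gene is above the filter only through that library, since its mean over the other 15 libraries is 0.89 TPM, so this value and its being tested are not independent.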

How the results depend on the processing

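In Cd against control, 24 alternatives gave between 5 and 7 genes past the threshold, and the 6 genes called passed in each alternative that tested them (Sult5a1 was not tested at a minimum of 5 TPM). In Cd+Se against Cd, the 4 genes became 1 after median centring and 0 with only the groups compared. When a mouse was left out they became from 1 to 5, with 2 without Cd mouse 5 and 1 without Cd+Se mouse 14. Of all 11766 tested genes, 1876 passed as deposited, 66 with only the groups compared, 767 without Cd mouse 5 and 712 without Cd+Se mouse 14. After median centring 2209 passed, 937 of them higher in Cd+Se. The losses on leaving out groups or mice were thus seen over the whole table. Ugt2b38 passed in 23 of 24 alternatives, Ugt2a3 in 21, Ugt3a2 in 19 and Ugt2b34 in 17, with adjusted p ranging up to 0.0717, 0.12, 0.103 and 0.0978. No called gene changed sign. The cause of these losses was not tested, except that fewer mice enter when groups or mice are left out. In Cd+Se against Se, Se against control and the interaction, the count stayed at 0 in every alternative. Of the genes not called, 13 of 18 in Cd against control and 6 of 20 in Cd+Se against Cd changed sign in some alternative. No paired analysis was possible because no mouse number is shared between groups. TPM keep no depth, so what depth limits is unknown, and precision rests on 4 mice per group.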
